A study of Mus musculus with 16 samples.

Results

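Collagen prolyl and lysyl modifying enzymes are the prolyl 4-hydroxylase subunits P4ha1, P4ha2, P4ha3 and P4hb, the lysyl hydroxylases Plod1, Plod2 and Plod3, and the lysyl oxidases Lox, Loxl1 and Loxl2. These 10 genes were taken by symbol from a table of 19938 mouse genes, each represented by 1 array row, the brightest over the 16 arrays where a gene had several. Of the 10, 9 had a row of their own. The single row that names Loxl2 also names Gm21451, so no value is given for Loxl2. The other 9 genes were measured in every array and none was removed by a filter.

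Collagen chains are modified in the endoplasmic reticulum before they leave the cell. Prolyl 4-hydroxylase, a tetramer of catalytic alpha subunits (P4ha1, P4ha2 or P4ha3) with the beta subunit P4hb, hydroxylates prolines, which makes the triple helix stable at body temperature. Lysyl hydroxylases (Plod genes) hydroxylate lysines that later carry sugars or take part in cross-links. Both classes need oxygen, iron and 2-oxoglutarate. Lysyl oxidases are secreted copper enzymes that oxidise lysines of collagen and elastin outside the cell and so start cross-linking. Several of these genes are known targets of the hypoxia-inducible factors (HIF), which the von Hippel-Lindau protein, product of Vhl, marks for breakdown.

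The samples were RNA of halved mouse kidneys, 1 whole-transcript array per animal as labelled. VHL-KO/AKI mice (n = 5) were given doxycycline (0.1 mg for each 10 g of weight, 4 days before death) to delete Vhl in the renal tubule, and glycerol injury. AKI mice (n = 5) had the injury alone, which is muscle breakdown after 0.05 ml per 10 g of 50% glycerol in a hind limb, with drinking water withdrawn from 20 h before to 24 h after. VHL-KO mice (n = 3) had doxycycline alone. Control mice (n = 3) were untreated. All 4 groups came from a line with an inducible tubular deletion (Pax8-rtTA by the cited description of the line), although the genotype label of AKI and Control mice reads wild type. No group had doxycycline without the deletion, or water withdrawal without glycerol. Mice of both sexes weighed 24 to 31 g, and no age, strain or sex per animal was given. Vhl outside the tubule is left in place.

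Vhl itself lay between 6.35 and 6.66 in VHL-KO/AKI, 7.01 and 7.36 in AKI, 6.62 and 6.70 in VHL-KO, and 7.03 and 7.10 in Control arrays, on the log2 scale of all levels given here. The mean of 6 proximal tubule markers ranged from 10.25 to 12.36 over the arrays. Sex-linked signal divided the arrays as injury did. Xist lay between 4.16 and 5.08 in the 10 injured arrays and between 10.23 and 11.47 in the 6 uninjured arrays, and Control 3 also had a Y-linked mean of 7.43, against 4.96 and 5.01 in the other Control arrays. Each comparison of injured with uninjured kidneys therefore cannot be told apart from a comparison by sex-linked signal. AKI 4 had a mean correlation of 0.973 with its own group, against 0.988 to 0.989 for the other AKI arrays. All 16 arrays were kept, and calls that change without Control 3 or AKI 4 are given with the adjusted p of that fit or a range that holds it.

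**Figure D1:**
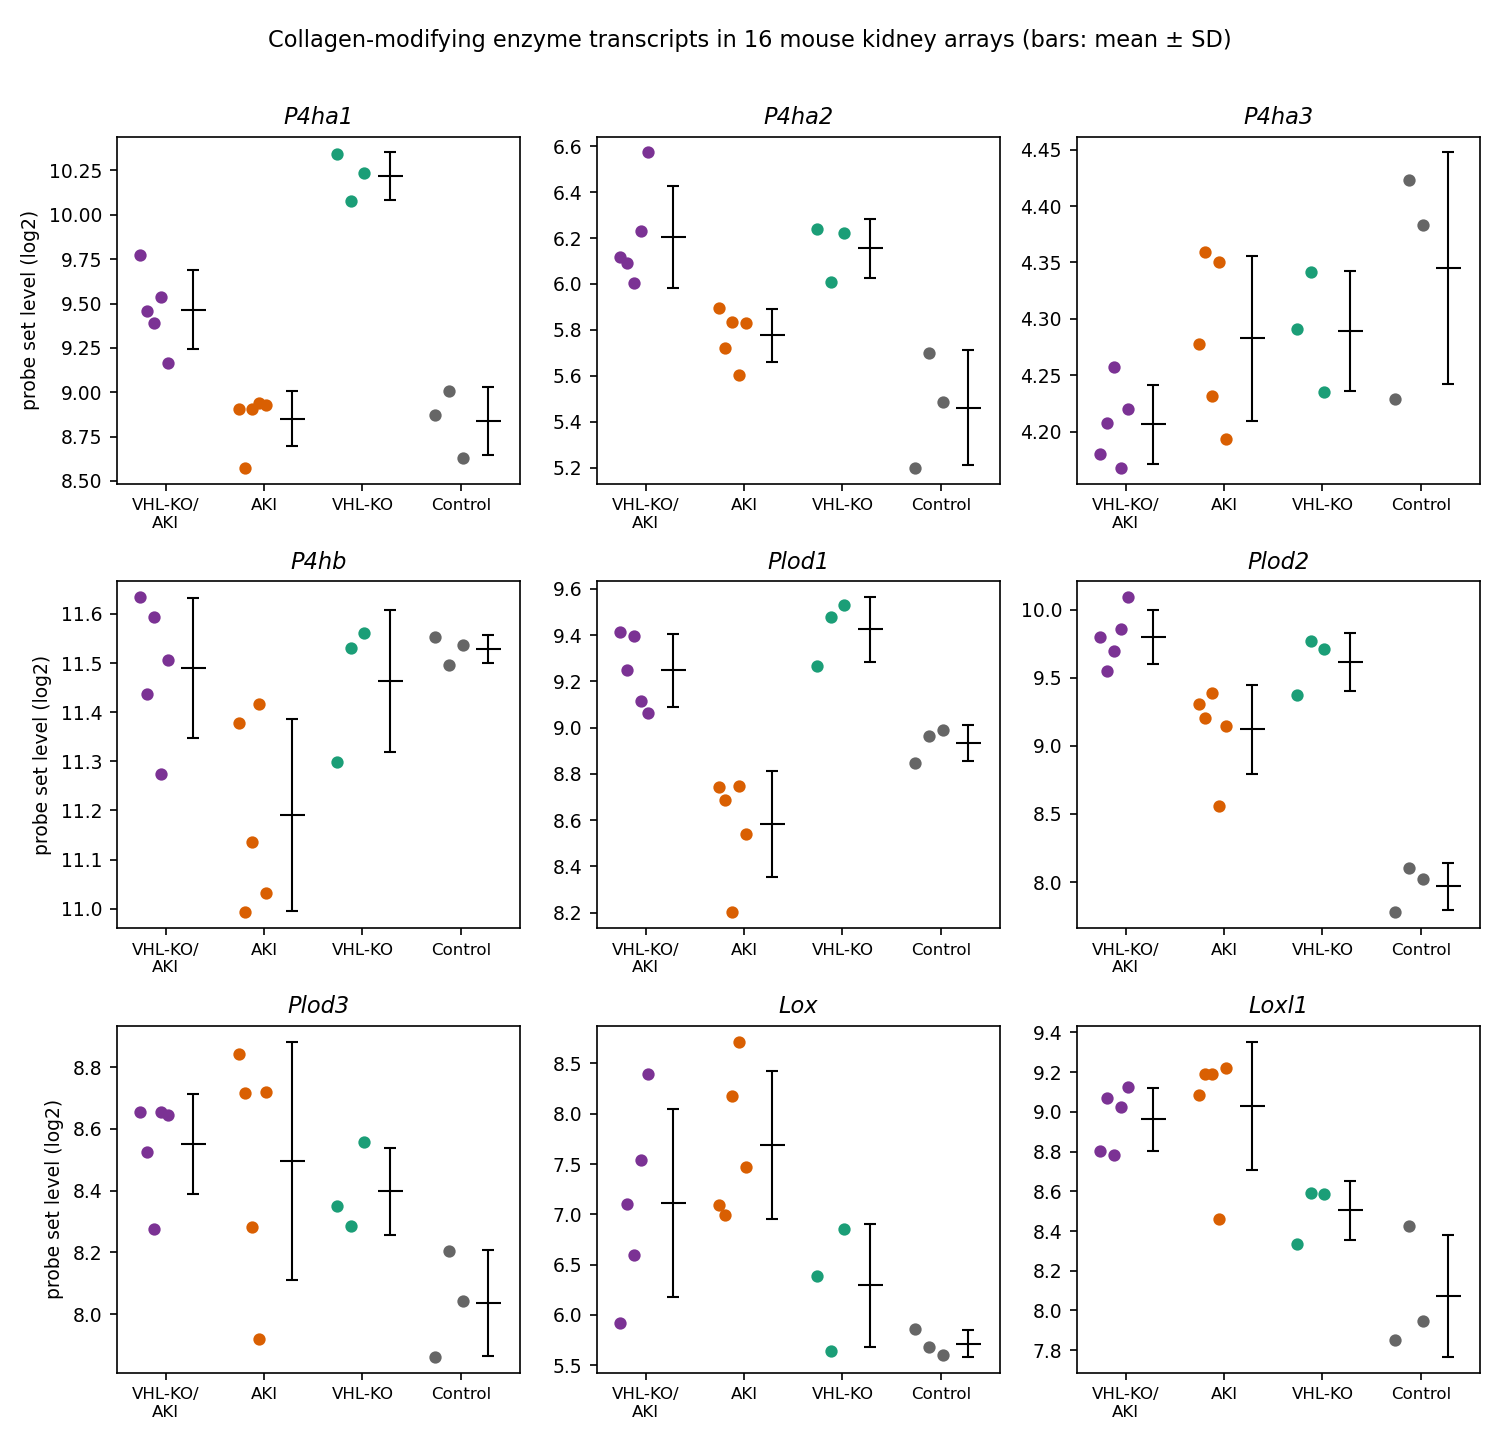
Level of 9 enzymes (log2, vertical axis, separate scale per gene) in each array, by group; points are arrays and bars show mean ± SD (n = 5, 5, 3 and 3 from left to right). P4ha1 is highest in the 3 VHL-KO arrays, Plod2 is lowest in the 3 Control arrays, and Lox spreads widely in both injured groups.

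The first question was what deletion of Vhl changed in the uninjured kidney. A prolyl hydroxylase subunit, P4ha1, and a lysyl hydroxylase, Plod2, had the largest differences, 2.61-fold and 3.13-fold higher in VHL-KO than in Control. P4ha2 was 1.62-fold higher. Of the 9 enzymes 3 rose, 0 fell and 6 did not pass, at an adjusted p under 0.05 in limma with Benjamini-Hochberg adjustment over all genes. Of all 19938 genes 0.527% were called in this comparison, 0.476% higher and 0.0502% lower. The median difference of the 9 was 0.49, against 0.02 over all genes. In whole tissue, more cells of a type and more RNA per cell cannot be told apart.

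P4ha1 encodes the main catalytic subunit of prolyl 4-hydroxylase in most tissues. It read 10.34, 10.08 and 10.23 in the VHL-KO arrays, against 8.87, 9.01 and 8.63 in the Control arrays. The groups did not overlap, and the lowest VHL-KO array stood above every array of the other 3 groups. The difference was 1.38 (SE 0.142, limma adjusted p = 0.000310), the fifth smallest p of all genes (rank 5) and rank 29 by size of rise. Leaving out any array in turn gave 1.28 to 1.47 and kept the call.

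Plod2 encodes the lysyl hydroxylase that acts on the collagen telopeptides, the short ends from which cross-links form. It read 9.37, 9.77 and 9.71 in VHL-KO, against 7.78, 8.10 and 8.02 in Control. All 3 Control arrays were lower than any other array of the series. The difference was 1.65 (SE 0.187, adjusted p = 0.000698), rank 16 of all genes by size of rise. Its range was 1.55 to 1.77 with any array left out, and the call held.

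P4ha2, a second catalytic subunit, read 6.24, 6.01 and 6.22 in VHL-KO, against 5.20, 5.70 and 5.48 in Control. The groups did not overlap. The difference was 0.70 (SE 0.143, adjusted p = 0.0439). This call is close to the threshold and ended in 11 of 16 fits that each left out 1 array and in 7 of 11 other alternatives. Adjusted p was 0.186 without VHL-KO 1, 0.203 without VHL-KO 3, 0.205 without Control 1 and 0.154 without Control 3, and the difference stayed between 0.56 and 0.81. In the other 7 of those fits, without VHL-KO/AKI 1, 2 or 4 or without AKI 1, 2, 3 or 5, it was 0.0594 to 0.0692.

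The other 2 lysyl hydroxylases stood higher in every VHL-KO array than in any Control array without passing the test. Plod1, a lysyl hydroxylase that acts on helical lysines, read 9.27, 9.48 and 9.53 in VHL-KO, against 8.85, 8.96 and 8.99 in Control (difference 0.49, SE 0.135, adjusted p = 0.178). Plod3, which also attaches sugars to hydroxylysine, lay between 8.29 and 8.56 in VHL-KO and between 7.86 and 8.20 in Control (0.36, SE 0.195, adjusted p = 0.682). In all, 5 of the 9 enzymes had every VHL-KO array above every Control array, and 0 had every array below, against 11.8% and 5.33% of all genes (17.2% in either direction).

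The beta subunit and the third alpha subunit did not pass. P4hb, the beta subunit, which is also protein disulphide isomerase and is found in far more places than collagen-making cells, lay between 11.30 and 11.56 in VHL-KO and between 11.50 and 11.55 in Control (-0.07, 95% interval -0.32 to 0.19, adjusted p = 0.95). P4ha3, the third catalytic subunit, was dim throughout, at 4.17 to 4.42 over the 16 arrays, above 4.78% of genes. Its difference was -0.06 (interval -0.20 to 0.09, adjusted p = 0.919).

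Among the lysyl oxidases no gene passed. Lox, which cross-links fibrillar collagen and elastin, read 6.39, 5.64 and 6.85 in VHL-KO, against 5.86, 5.68 and 5.60 in Control (0.58, SE 0.541, adjusted p = 0.878). The groups overlapped, since VHL-KO 2 lay inside the Control range. Loxl1, a lysyl oxidase linked to elastic fibres, read 8.33, 8.59 and 8.59 in VHL-KO, against 7.85, 8.43 and 7.95 in Control (0.43, SE 0.189, adjusted p = 0.553).

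Markers of other cells were set beside these values. The mean of 6 endothelial markers lay between 9.70 and 9.92 in VHL-KO and between 9.23 and 9.35 in Control, with 0 of 6 called (all 6 list genes were measured). The mean of 6 fibroblast markers lay between 7.54 and 7.95 in VHL-KO and between 7.33 and 7.51 in Control, with 0 of 6 called. The mean of 6 proximal tubule markers, cells of the tubule in which Vhl was to be deleted, lay lower, between 11.79 and 12.04 in VHL-KO and between 12.21 and 12.36 in Control, with 0 of 6 called and a median difference of -0.37. No marker was at 0, as every array row carries a signal. Their part in the differences was not tested.

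**Figure D2:**
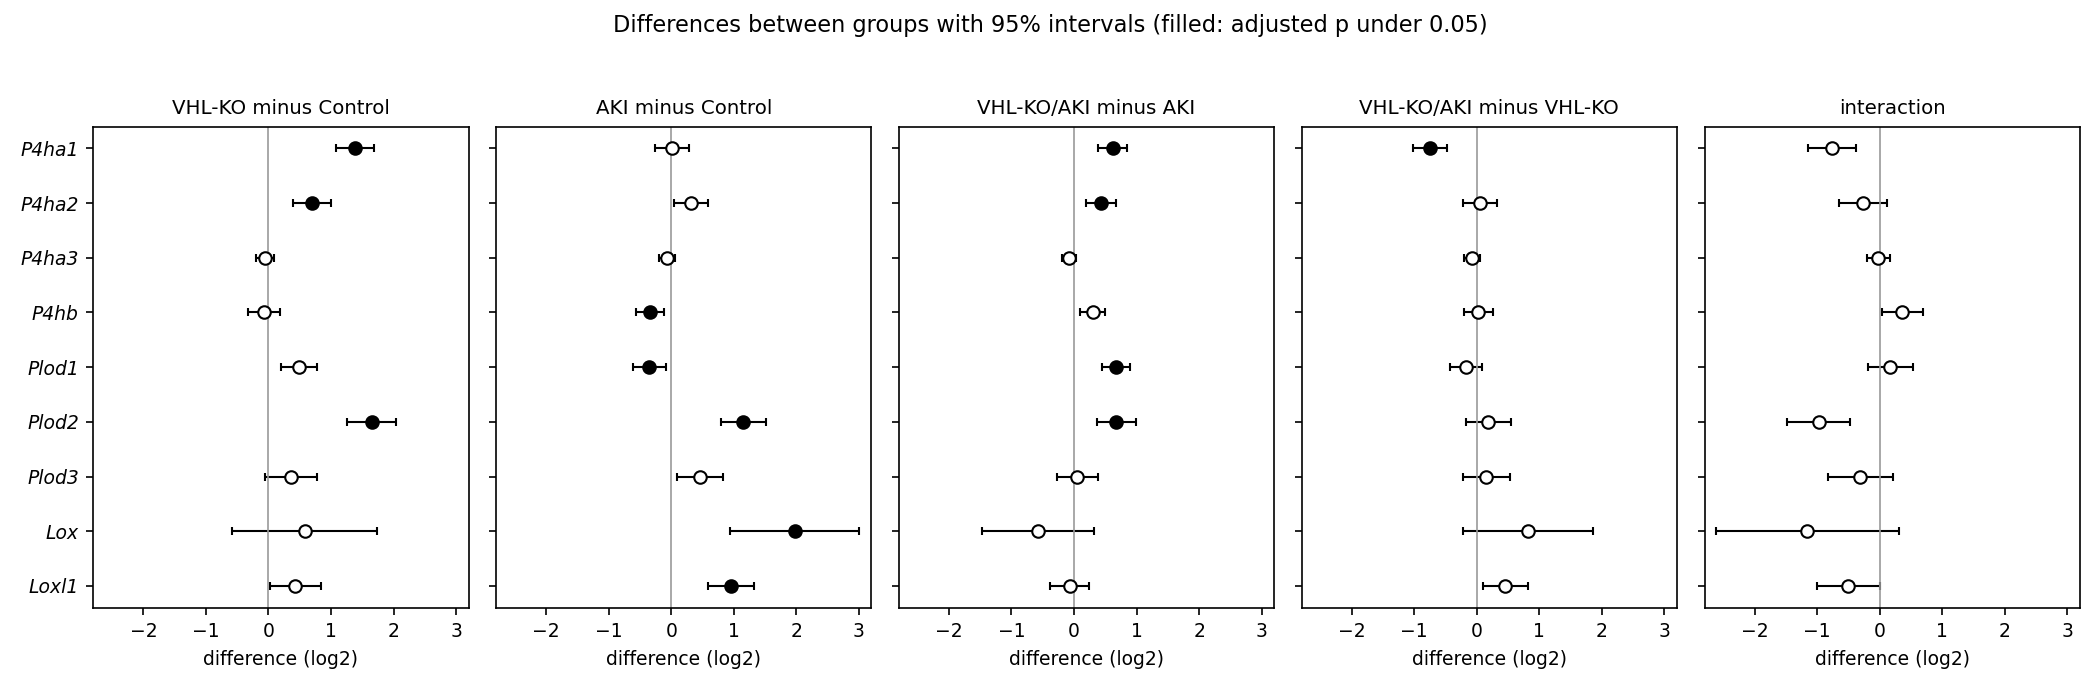
Difference between groups for each of 9 enzymes (log2, horizontal axis) in 5 comparisons, with 95% intervals of the limma fit; filled points had an adjusted p under 0.05. P4ha1, P4ha2 and Plod2 are filled in VHL-KO minus Control and again in VHL-KO/AKI minus AKI.

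Upstream sequence is shown for P4ha1, P4ha2 and Plod1, which rose after deletion in at least 1 comparison, and for Plod3, which was not called, so that the known HIF core letters can be set beside the values. RefSeq entries (GRCm38.p6) matched 6 of the 10 genes (not Plod2, Lox, Loxl1 or Loxl2), and the 250 bases before each entry's start were read. The gene span of P4ha1 begins earlier, at 59323197, and that of P4ha3 at 100285489, so both windows run into the gene. Capitals mark ACGTG or GCGTG on either strand, the other strand appearing as CACGT or CACGC. No 2 matches overlapped in these sequences.
P4ha1 (chr10:59323046-59323295, + strand): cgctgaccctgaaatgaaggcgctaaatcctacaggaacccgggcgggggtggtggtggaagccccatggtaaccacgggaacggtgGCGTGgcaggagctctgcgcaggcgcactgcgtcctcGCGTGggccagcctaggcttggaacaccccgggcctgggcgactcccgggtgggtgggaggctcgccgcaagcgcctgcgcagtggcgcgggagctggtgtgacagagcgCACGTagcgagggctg
P4ha2 (chr11:54100674-54100923, + strand): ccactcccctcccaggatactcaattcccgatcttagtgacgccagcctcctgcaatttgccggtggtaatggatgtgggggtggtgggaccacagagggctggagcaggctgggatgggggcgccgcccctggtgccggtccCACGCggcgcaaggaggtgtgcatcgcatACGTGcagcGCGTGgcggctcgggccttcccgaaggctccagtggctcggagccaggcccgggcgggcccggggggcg
Plod1 (chr4:147936777-147937026, - strand): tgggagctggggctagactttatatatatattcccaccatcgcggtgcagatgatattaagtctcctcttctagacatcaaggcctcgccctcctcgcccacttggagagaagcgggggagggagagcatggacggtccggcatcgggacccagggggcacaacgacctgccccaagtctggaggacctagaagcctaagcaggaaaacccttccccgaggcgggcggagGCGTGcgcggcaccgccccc
Plod3 (chr5:136986769-136987018, + strand): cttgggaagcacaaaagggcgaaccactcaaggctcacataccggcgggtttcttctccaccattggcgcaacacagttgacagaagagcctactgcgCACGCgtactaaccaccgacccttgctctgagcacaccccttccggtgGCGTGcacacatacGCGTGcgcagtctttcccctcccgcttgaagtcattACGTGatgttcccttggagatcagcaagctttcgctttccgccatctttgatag
P4ha1 held 3 matches, which began 163, 126 and 16 bases before the entry's start, the last of them inside the gene span. P4ha2 also held 3, at 107, 78 and 69 bases. Plod1 held 1, at 20 bases. Plod3 held 4, and P4hb, which was not called after deletion, held 2. P4ha3 held 0. Among 19177 promoters of the tested genes 46.2% had at least 1 match, 9.02% had 3 or more and 3.64% had 4 or more. Plod3, with the most matches of the 6, was not called after deletion, although all its VHL-KO arrays lay above its Control arrays. Whether the matches have a part in the differences was not tested.

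The second question was what deletion changed once the kidney was injured. P4ha1, P4ha2 and Plod2, called above, passed again, Plod1 passed as well, and no lysyl oxidase did. Plod2 was 1.60-fold, Plod1 1.58-fold, P4ha1 1.53-fold and P4ha2 1.35-fold higher in VHL-KO/AKI than in AKI. Of the 9 enzymes 4 rose, 0 fell and 5 did not pass, against 3.88% of all genes called, 2.48% higher and 1.4% lower. In 4 of the 9 every VHL-KO/AKI array was above every AKI array, as in 2.19% of all genes (1.58% the other way, 3.78% in either direction). The median of the 9 was 0.30, against -0.01 over all genes. The AKI and VHL-KO/AKI groups were alike in sex-linked signal, with Xist at 4.30 to 4.49 in VHL-KO/AKI and 4.16 to 5.08 in AKI.

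Plod1 read 9.41, 9.25, 9.40, 9.12 and 9.06 in VHL-KO/AKI, against 8.75, 8.69, 8.20, 8.75 and 8.54 in AKI. Every VHL-KO/AKI array was above every AKI array, and AKI 3 was the lowest. The difference was 0.66 (SE 0.105, adjusted p = 0.00432), with a range of 0.57 to 0.71 when any array was left out.

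P4ha1 read 9.77, 9.46, 9.39, 9.54 and 9.16 in VHL-KO/AKI, against 8.91, 8.57, 8.90, 8.94 and 8.93 in AKI. The groups did not overlap, and 4 of the 5 AKI arrays lay between 8.90 and 8.94. The difference was 0.62 (SE 0.110, adjusted p = 0.00804) and held with any array left out (0.54 to 0.69).

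Plod2 read 9.80, 9.55, 9.70, 9.86 and 10.09 in VHL-KO/AKI, against 9.31, 9.21, 9.39, 8.56 and 9.15 in AKI. The groups did not overlap, and AKI 4 lay well below the other AKI arrays. The difference was 0.68 (SE 0.145, adjusted p = 0.0220), and 0.54 without AKI 4 (adjusted p = 0.00684). The call ended without VHL-KO/AKI 1 (adjusted p = 0.0604) and in a fit of the 2 groups alone (adjusted p = 0.0689).

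P4ha2 read 6.12, 6.09, 6.01, 6.23 and 6.57 in VHL-KO/AKI, against 5.89, 5.72, 5.83, 5.60 and 5.83 in AKI. The groups did not overlap. The difference was 0.43 (SE 0.111, adjusted p = 0.0452), and the call ended in 12 of 16 fits with 1 array left out, with adjusted p up to 0.0861 and a difference of 0.34 to 0.48. The call held without VHL-KO/AKI 5, AKI 4, Control 1 or Control 2, and ended without any of the other 12 arrays. It also ended in 4 of 11 other alternatives (adjusted p 0.0536 to 0.0837). These were the replicate block, the sex-linked covariate, the 2 groups alone, and leaving out Control 3 with AKI 4. Without Control 3 the difference was 0.43 (limma adjusted p = 0.0617).

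The other members did not pass in injured kidneys. P4hb read 11.63, 11.44, 11.59, 11.27 and 11.51 in VHL-KO/AKI, against 11.38, 10.99, 11.14, 11.42 and 11.03 in AKI (0.30, SE 0.0932, adjusted p = 0.0888). Without AKI 4 that difference was 0.36 and passed (adjusted p = 0.0205), in a fit where 2384 of all genes were called. Loxl1 differed by -0.07 (interval -0.38 to 0.24), Plod3 by 0.06 (interval -0.27 to 0.38) and P4ha3 by -0.08 (interval -0.19 to 0.03). Plod3 had the opposite sign, -0.09, without AKI 4. Lox differed by -0.58 (interval -1.47 to 0.32, adjusted p = 0.511). Without AKI 4 the Lox difference was -0.32 and that of Loxl1 was -0.21, and neither passed.

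Fibroblast markers also separated these groups. Their mean lay between 7.71 and 8.01 in VHL-KO/AKI and between 7.34 and 7.60 in AKI. Of 6 markers 2 rose, Dcn by 0.69 and Fbln1 by 0.50. Of 6 endothelial markers 0 passed, with means of 9.15 to 9.34 in VHL-KO/AKI and 8.88 to 9.19 in AKI. Of 4 smooth muscle markers 2 fell, Tagln by 0.93 and Acta2 by 0.57, with means of 7.09 to 7.49 in VHL-KO/AKI and 7.35 to 7.98 in AKI. The other 2, Myh11 and Cnn1, did not pass and went the other way. They averaged 7.03 and 5.59 in VHL-KO/AKI, against 6.66 and 5.40 in AKI. The part of these cells in the enzyme differences was not tested.

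**Figure D3:**
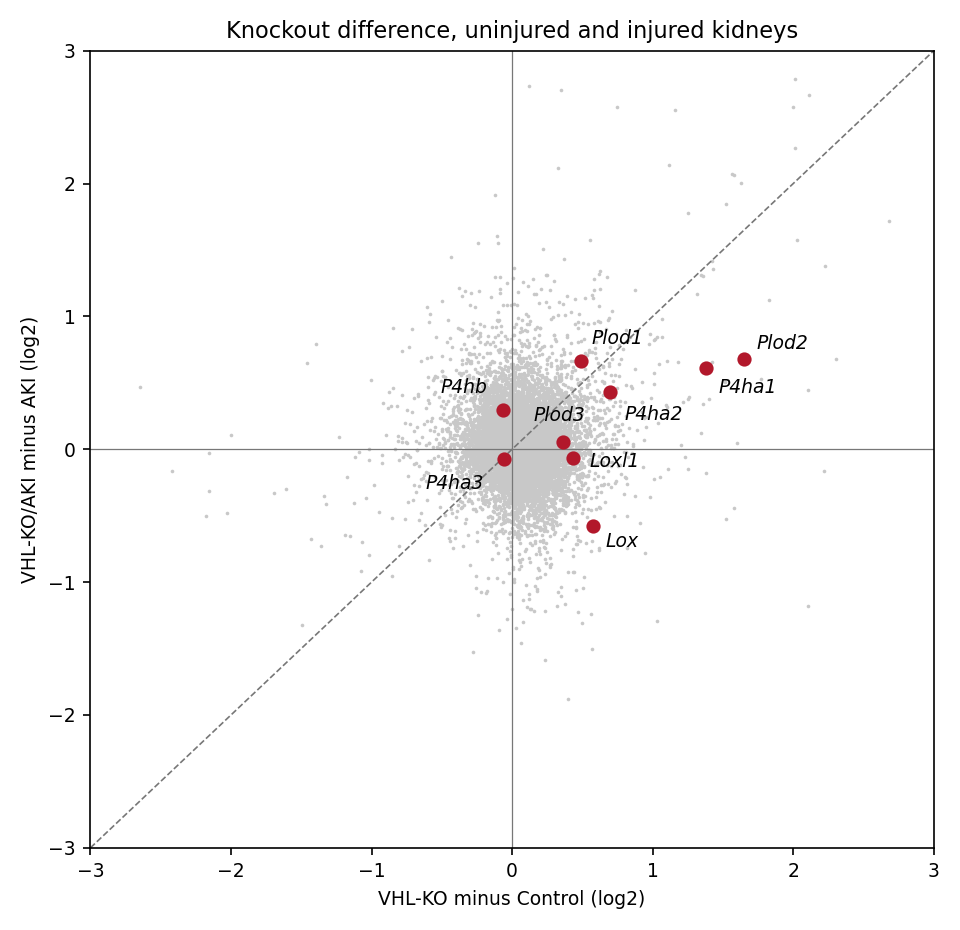
Knockout difference of every gene in uninjured kidneys (VHL-KO minus Control, log2, horizontal axis) against that in injured kidneys (VHL-KO/AKI minus AKI, log2, vertical axis); grey points are genes, red points are the enzymes, the dashed line marks equal differences, and 2 genes fall outside the range of ±3. P4ha1 (1.38 and 0.62) and Plod2 (1.65 and 0.68) lie below the line, and Plod1 (0.49 and 0.66) lies above it.

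The size of the knockout difference was compared between injured and uninjured kidneys by the interaction term. Sex-linked signal divided these arrays in the same way, so the term cannot be told apart from a comparison by that signal. The P4ha1 difference was 0.62 in injured and 1.38 in uninjured kidneys, and that of Plod2 was 0.68 and 1.65. The interaction was -0.77 for P4ha1 (SE 0.179, unadjusted p = 0.000684, limma adjusted p = 0.130) and -0.97 for Plod2 (SE 0.237, unadjusted p = 0.000958, adjusted p = 0.144). Neither passed, and 0 of 9 enzymes did, with 3 of 9 at an unadjusted p under 0.05. Only 2 of all 19938 genes (0.01%) were called, and 2387 had an unadjusted p under 0.05. Without AKI 4 both passed, at -0.74 for P4ha1 (adjusted p = 0.0468) and -1.11 for Plod2 (adjusted p = 0.0172), and without VHL-KO/AKI 5 Plod2 passed at -1.04 (adjusted p = 0.0491). Without Control 3 and AKI 4 together, Plod2 passed (adjusted p = 0.0482) and P4ha1 did not (adjusted p = 0.118). Calls over all genes also changed, to 620 without AKI 4, 206 without VHL-KO/AKI 5 and 22 without Control 3 and AKI 4. With the sex-linked covariate the limma interaction was -0.65 for P4ha1 (adjusted p = 0.440) and -1.05 for Plod2 (adjusted p = 0.390).

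The levels behind those terms differed between the genes. Plod2 was at a higher level in AKI, at 9.12 ± 0.33 (SD, n = 5), against 7.97 ± 0.17 in Control (n = 3). Both deleted groups lay near each other, at 9.80 ± 0.20 in VHL-KO/AKI and 9.62 ± 0.21 in VHL-KO. P4ha1 was 8.85 ± 0.15 in AKI, against 8.84 ± 0.19 in Control, and 9.47 ± 0.22 in VHL-KO/AKI, against 10.22 ± 0.13 in VHL-KO.

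The third question was what injury did with Vhl intact. The lysyl oxidases Lox and Loxl1 and the lysyl hydroxylase Plod2 rose, whereas the beta subunit P4hb and Plod1 fell. Loxl3 and Loxl4, lysyl oxidases outside the 10 listed genes, did not pass. They averaged 5.77 and 5.56 in AKI, against 5.70 and 5.39 in Control. Lox was 3.93-fold, Plod2 2.23-fold and Loxl1 1.94-fold higher in AKI than in Control. Of the 9 enzymes 3 rose, 2 fell and 4 did not pass. In the same comparison 28.1% of all genes were called, 13.2% higher and 14.9% lower, so calls were frequent in general. Groups did not overlap for 3 enzymes higher and 2 lower in AKI, against 13.5% and 13.8% of all genes (27.3% in either direction). The Control arrays are the same as in the first comparison. When sex-linked signal was added as a covariate, 0 of 9 enzymes and 0 of all genes passed, and the standard error for Plod2 was 0.730 in place of 0.167.

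Lox read 7.10, 6.99, 8.17, 8.72 and 7.47 in AKI, against 5.86, 5.68 and 5.60 in Control. Every AKI array was above every Control array, and the AKI arrays spread over more than the Control arrays. The difference was 1.97 (SE 0.484, adjusted p = 0.0066), with 1.72 to 2.15 when any array was left out. AKI 4, the array that stood apart, had the highest Lox level of the series.

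Loxl1 read 9.09, 9.19, 9.19, 8.46 and 9.22 in AKI, against 7.85, 8.43 and 7.95 in Control. The groups did not overlap, although AKI 4 lay close to Control 2. The difference was 0.96 (SE 0.169, adjusted p = 0.000766), and 1.10 without AKI 4.

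Plod2 levels, given above, did not overlap between AKI and Control. The difference was 1.15 (SE 0.167, adjusted p = 0.000187), and 1.29 without AKI 4. Plod3, the third lysyl hydroxylase, read 8.84, 8.72, 8.28, 7.92 and 8.72 in AKI, against 7.86, 8.20 and 8.04 in Control. AKI 4 overlapped the Control arrays. The difference was 0.46 (SE 0.174, adjusted p = 0.0620), and it passed without AKI 4 at 0.60 (adjusted p = 0.00229) and after quantile or cyclic loess scaling (adjusted p 0.0364 and 0.0446).

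P4hb fell by 0.34 in AKI (SE 0.108, adjusted p = 0.0285). All AKI arrays, 10.99 to 11.42, were below all Control arrays, 11.50 to 11.55. Plod1 fell by 0.35 (SE 0.121, adjusted p = 0.0424), with AKI arrays at 8.20 to 8.75 and Control arrays at 8.85 to 8.99. Both calls are near the threshold. The P4hb call ended without AKI 2, AKI 3, AKI 5 or any 1 of the 3 Control arrays (adjusted p 0.0557 to 0.0869). It also ended in a fit of the 2 groups alone (0.0646), under the replicate block (0.0979) and with the sex-linked covariate. After quantile scaling the call ended too, with a difference of -0.21 (adjusted p = 0.131). The Plod1 call ended without AKI 3, AKI 5, VHL-KO/AKI 2, VHL-KO 2 or any 1 of the 3 Control arrays (adjusted p 0.0516 to 0.127). It also ended after centring (0.0507), with trended and robust variance (0.0543) and in a fit of the 2 groups alone (0.0932). The replicate block (0.142), the sex-linked covariate and leaving out Control 3 with AKI 4 (0.0773) ended it as well.

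The prolyl hydroxylase alpha subunits did not pass. P4ha1 differed by 0.01 (interval -0.26 to 0.28) and by -0.09 without Control 3, and P4ha2 by 0.31 (SE 0.128, adjusted p = 0.0810). P4ha2 passed without AKI 4 (0.36, adjusted p = 0.0454), without VHL-KO/AKI 5 (0.31, adjusted p = 0.0357) or without Control 2 (0.43, adjusted p = 0.0351). P4ha3 differed by -0.06 (interval -0.19 to 0.06).

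Several cell markers were called in the same comparison. All 6 proximal tubule markers fell, and their mean lay between 10.25 and 11.69 in AKI, with AKI 4 the highest, against 12.21 to 12.36 in Control. Of 5 macrophage markers 3 rose and 1 fell, with means of 6.63 to 7.56 in AKI and 6.25 to 6.78 in Control. Of 4 smooth muscle markers Tagln rose by 1.25 and Myh11 fell by 0.45, with means of 7.35 to 7.98 in AKI and 7.23 to 7.35 in Control. Of 6 fibroblast markers 1 rose, Dcn by 0.44, with means of 7.34 to 7.60 in AKI and 7.33 to 7.51 in Control. Of 6 endothelial markers 2 fell, Kdr by 0.82 and Tie1 by 0.42, with means of 8.88 to 9.19 in AKI and 9.23 to 9.35 in Control. The 4 not called were split, with Tek and Emcn lower on average in AKI, and Cdh5 and Pecam1 higher. Cdh5 averaged 9.77 in AKI, against 9.29 in Control. Their part in the enzyme differences was not tested.

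The fourth comparison set injury against no injury in deleted kidneys. P4ha1 was the only one of the 9 enzymes to pass, and it was lower in VHL-KO/AKI. This share, 1 of 9, was close to that over all genes, of which 13.6% were called, 4.66% higher and 8.91% lower. The P4ha1 difference was -0.75 (SE 0.127, adjusted p = 0.00145), with every VHL-KO/AKI array, up to 9.77, below every VHL-KO array, from 10.08. It ranged from -0.83 to -0.68 with any array left out, and was -0.0046 (SE 0.626) in the fit with the sex-linked covariate. Loxl1 read 8.80, 9.07, 8.78, 9.03 and 9.13 in VHL-KO/AKI, against 8.33, 8.59 and 8.59 in VHL-KO. These groups did not overlap, as in 9.42% of all genes higher in VHL-KO/AKI and 14.9% lower (24.3% in either direction), and the difference was 0.46 (SE 0.169, adjusted p = 0.0900), which passed without AKI 4, an array outside both groups that enters the shared spread (adjusted p = 0.0147), and in a fit of the 2 groups alone (adjusted p = 0.0163). Of 6 endothelial markers 4 fell here, with means of 9.15 to 9.34 in VHL-KO/AKI and 9.70 to 9.92 in VHL-KO, and of 6 proximal tubule markers 4 fell, with means of 10.54 to 11.28 in VHL-KO/AKI and 11.79 to 12.04 in VHL-KO. Of 5 macrophage markers 2 rose and 1 fell, with means of 6.79 to 7.31 in VHL-KO/AKI and 6.56 to 6.95 in VHL-KO, and of 3 podocyte markers 2 fell, with means of 7.27 to 7.42 in VHL-KO/AKI and 7.45 to 7.79 in VHL-KO. Of 6 fibroblast markers 1 rose, Dcn by 0.53. The part of these cells was not tested.

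Lox differed by 0.82 between VHL-KO/AKI and VHL-KO (interval -0.21 to 1.85, adjusted p = 0.303). Its VHL-KO/AKI arrays read 5.92, 7.10, 6.60, 7.54 and 8.40, the widest spread of any enzyme in any group (SD 0.937). VHL-KO/AKI 1 lay close to the Control arrays and VHL-KO/AKI 5 among the highest AKI arrays. Plod2 differed by 0.18 (interval -0.17 to 0.54), P4ha2 by 0.05 (interval -0.23 to 0.32) and Plod1 by -0.18 (interval -0.44 to 0.08).

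Read across the 4 groups, the enzymes fell into different orders of mean level. P4ha1 ran from VHL-KO through VHL-KO/AKI to AKI and Control, of which the last pair overlapped. Plod1 ran from VHL-KO and VHL-KO/AKI, which overlapped, through Control to AKI. Plod2 ran from VHL-KO/AKI through VHL-KO and AKI to Control, and of these neighbours AKI and Control alone did not overlap. P4ha2 ran from VHL-KO/AKI and VHL-KO, which overlapped, through AKI to Control, and AKI and Control overlapped. Loxl1 ran from AKI and VHL-KO/AKI, which overlapped, through VHL-KO to Control, and VHL-KO and Control overlapped, and Lox had the same order of means with overlap between each pair of neighbours. Plod3 ran from VHL-KO/AKI through AKI and VHL-KO, with overlap, to Control. P4hb ran from Control through VHL-KO/AKI and VHL-KO to AKI, with overlap between neighbours.

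Genes with the most similar pattern over the 16 arrays were found by Pearson r, as a description, since the arrays share their groups. For P4ha1 they were Stc2 (r = 0.94), A2m (0.93) and Edn3 (0.92). For Plod1 they were the glycolytic enzyme Tpi1 (0.96), Il17rb (0.94) and the pyruvate dehydrogenase kinase Pdk1 (0.93). P4ha2 and Plod2 were each other's closest gene (0.89). For Lox they were Zfand5, Rab20 and Inhbb (each 0.95), and for Loxl1 Tmem43 (0.96), Kpna3 (0.94) and Pafah1b2 (0.94). For P4hb they were Slc13a1, a sulphate carrier of the proximal tubule (0.90), Tmem234 (0.89) and Cdk5rap3 (0.88).

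Other HIF targets were measured for comparison, from a list of 20 genes of which 19 had a row. In VHL-KO against Control 10 rose and 0 fell (median 0.77), where 0.527% of all genes were called. Adm, which encodes a vasodilator peptide, rose by 2.31 and Egln3, a HIF prolyl hydroxylase, by 2.12. The lactate exporter Slc16a3 rose by 1.63 and Pdk1 by 1.57. Among injured kidneys 13 rose and 0 fell in VHL-KO/AKI against AKI (median 0.71), where 3.88% of all genes were called. The carbonic anhydrase Car9 rose by 2.70, Egln3 by 2.67, Pdk1 by 2.07 and Slc16a3 by 2.00. In AKI against Control 3 rose and 3 fell (median -0.17), a share close to the 28.1% of all genes called there. Among them were Adm up by 1.63, Pdk1 down (-1.07), the glucose carrier Slc2a1 up by 0.84 and the histone demethylase Kdm3a up by 0.55.

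Other genes linked to collagen modification and folding were counted as a list, not all of which act on collagen chains. Of 14 measured from a list of 15, 0 passed in VHL-KO against Control (median 0.13), where Colgalt2, which adds galactose to hydroxylysine, differed by 0.34 (adjusted p = 0.277) and Fkbp14, a prolyl isomerase, by 0.44 (adjusted p = 0.350). With injury, 2 rose and 0 fell in VHL-KO/AKI against AKI (median 0.11). These were Crtap, a partner of prolyl 3-hydroxylase, by 0.64 (adjusted p = 0.0202) and Colgalt2 by 0.55 (adjusted p = 0.00265). In AKI against Control 0 rose and 4 fell of the 14 (median 0.0028), a share close to the 28.1% of all genes called in that comparison. P3h2, a prolyl 3-hydroxylase, fell by 1.82 and Colgalt2 by 1.13, and the prolyl isomerase Ppib and P3h4 fell by 0.40 and 0.34.

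Procollagen export and processing genes, 10 measured of 11, had 0 calls in VHL-KO against Control, where the differences with the smallest p were 0.47 for Tram2 and 0.48 for Sparc. They also had 0 calls in VHL-KO/AKI against AKI, with 0.34 for Tram2 (adjusted p = 0.0722) and 0.20 for Ctage5. In AKI against Control Sparc, a collagen-binding matrix protein, rose by 0.50 and Pcolce, an enhancer of procollagen cleavage, fell by 0.86. The substrates, 15 collagen chains, had 0 calls in VHL-KO against Control (median 0.03), where Col4a2 and Col4a1 each differed by 0.33. Collagen chains had 0 calls in VHL-KO/AKI against AKI (median 0.0048), with 0.53 for Col4a3 (adjusted p = 0.0813) and 0.43 for Col4a4 (adjusted p = 0.164). In AKI against Control 4 rose and 2 fell of the 15, against 28.1% of all genes called. The basement membrane chains Col4a1 and Col4a2 rose by 0.81 and 0.73, and Col4a3 and Col4a4, chains of the glomerular basement membrane, fell by 0.87 and 0.68.

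**Figure D4:**
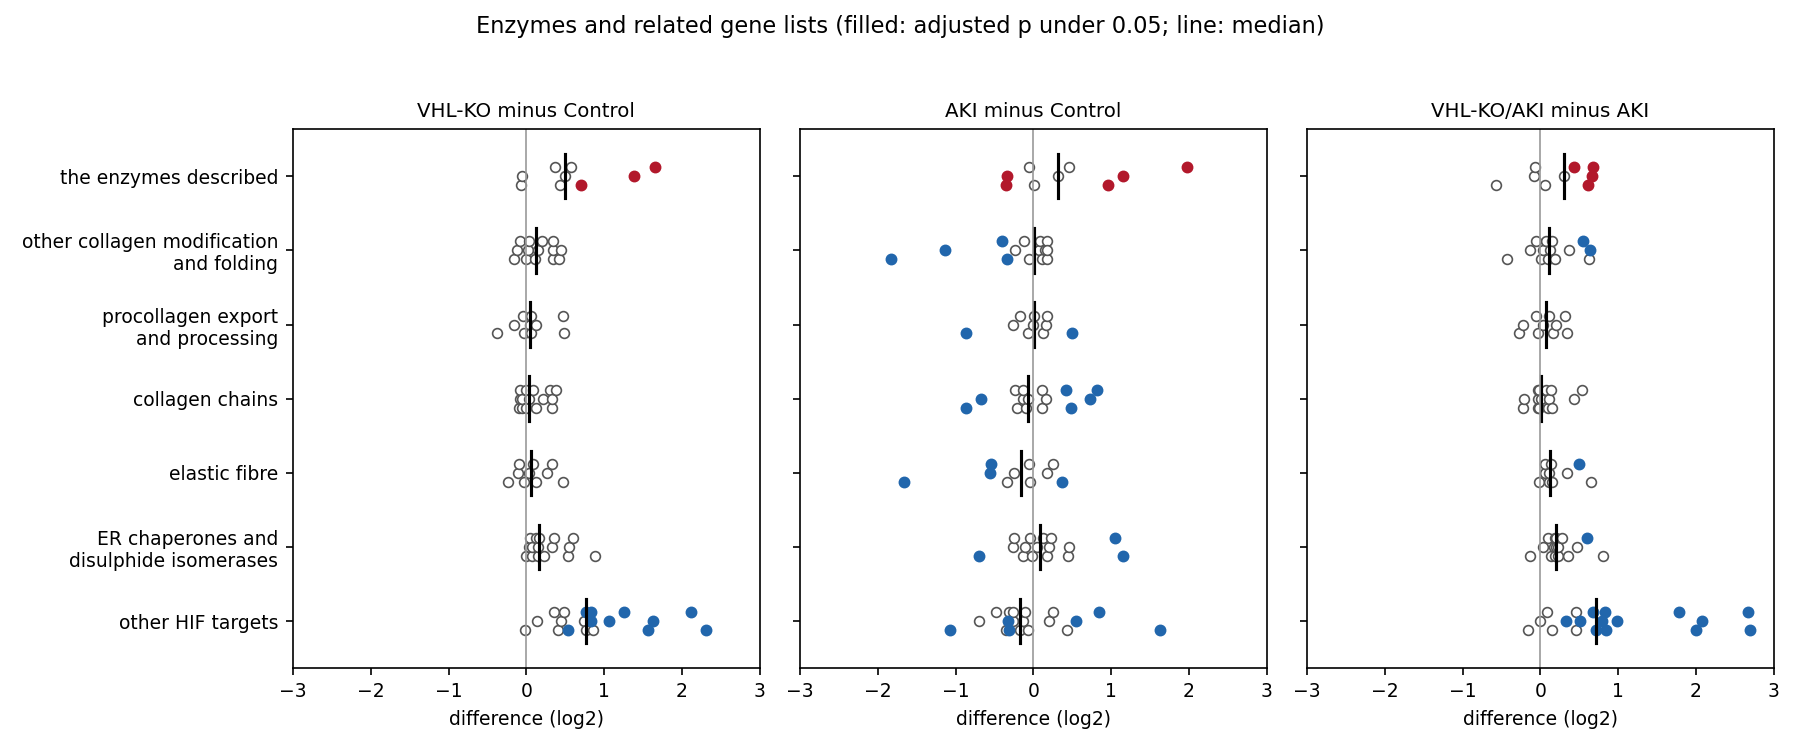
Difference of each gene (log2, horizontal axis) in 3 comparisons for the 9 enzymes (red) and 6 lists of related genes (blue); filled points had an adjusted p under 0.05 and the black line is the list's median. In VHL-KO minus Control the filled points lie among the enzymes (3 of 9) and the other HIF targets (10 of 19), with 0 in the 5 other lists.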

How the data were processed

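Total RNA of 16 mouse kidneys, 1 array each, had been labelled from random-primed cDNA, per the labels' protocols. The deposited values are log2 probe set levels. The submitters' processing notes name Partek 6.4 and RMA. Their settings and the genome build were not given in the sources used here. Scanner output was not used. The table has 35556 rows, 21789 with exactly 1 gene symbol in the probe table, 1621 with several and 12146 with none. Rows with 1 symbol gave 19938 genes, and the brightest row stood for each of 999 genes with several. Medians per array, 5.92 to 6.03, were left as deposited, and 0 pairs of arrays were identical. Groups came from the titles. Replicates are labelled biological.

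One limma model (version 3.58.1, R 4.3.3) held all 4 groups (12 residual and 2.83 prior degrees of freedom). Tests were 2-sided, with Benjamini-Hochberg adjustment over all genes at 0.05. The fit was checked on simulated data. Errors are SD for levels and limma standard errors for differences. The number of animals limits the precision. All members, and from each list up to 4 called genes with the largest change or up to 2 with the smallest p, were named. The 3 genes most like each called member were named by Pearson r. Members and lists were chosen with earlier results of these data known. Alternatives changed 1 choice at a time: the row per gene, a filter on dim genes, centring, quantile or cyclic loess scaling, the variance model, array weights, compared groups alone, a replicate block, a sex-linked covariate (Xist minus the mean of Uty, Eif2s3y and Kdm5d), and each array left out. Leaving out Control 3 with AKI 4 was added after the data were seen. No label gives a batch or scan date.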

Additional observations from a re-analysis of the deposited data

Results flagged for a closer look

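Of 18 sets of 5 arrays examined (9 enzymes in the 2 injured groups), 3 had an array far from the others. Chance alone gives about 1 in 20 for a single set. The sets share the same arrays and are not independent, so that rate cannot be used to judge the count. P4ha1 in AKI 2 was 8.57, against 8.90 to 8.94 in the other 4 AKI arrays. Plod2 in AKI 4 was 8.56, against 9.15 to 9.39 in the others. Loxl1 in AKI 4 was 8.46, against 9.09 to 9.22. The mean of the proximal tubule markers was also apart in AKI 4, at 11.69, against 10.25 to 10.94 in the others. Without AKI 2 the P4ha1 difference between VHL-KO/AKI and AKI was 0.55, and it remained called.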

How the results depend on the processing

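P4ha1 and Plod2 in VHL-KO against Control, and P4ha1 and Plod1 in VHL-KO/AKI against AKI, kept direction and call under every alternative run. The count of enzymes called in VHL-KO against Control was 2 or 3 throughout. In AKI against Control it was 5, with 3 under the replicate block, 3 with the compared groups alone, 0 with the sex-linked covariate and 3 to 7 with 1 array left out. It was 4 in VHL-KO/AKI against AKI, with 2 for the compared groups alone and 2 to 5 with 1 array left out. It was 1 in VHL-KO/AKI against VHL-KO, with 2 after centring, cyclic loess or array weights, with the compared groups alone, and without Control 3 and AKI 4, 0 with the covariate and 1 to 2 with 1 array left out. For the interaction it was 0, with 2 under array weights, 1 without Control 3 and AKI 4 and 0 to 2 with 1 array left out.

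Signs turned only for differences that had not passed. P4ha1 in AKI against Control was -0.014 after quantile scaling, -0.0019 after cyclic loess, -0.11 without Control 3 and AKI 4 and -0.09 to 0.10 with 1 array left out. Plod3 in VHL-KO/AKI against AKI was -0.068 under array weights, -0.0889 without Control 3 and AKI 4 and -0.0889 to 0.1415 with 1 array left out. In VHL-KO/AKI against VHL-KO, P4ha2 was -0.0265 under array weights and -0.0451 to 0.0965 with 1 array left out, P4hb was -0.0561 to 0.0801 with 1 array left out, and with the covariate Plod2 was -0.33 and Plod3 -0.27. P4hb in VHL-KO against Control was -0.1142 to 0.0174 with 1 array left out. The P4ha3 interaction was 0.047 after centring, 0.0178 under array weights and -0.0589 to 0.038 with 1 array left out. The cause of these moves was not tested.

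Over all genes, calls in VHL-KO against Control were 105, with 64 after centring, 66 after cyclic loess, 319 under array weights, 65 under the replicate block, 18 with the covariate and 34 to 235 with 1 array left out. In AKI against Control 5600 became 0 with the covariate. The 774 calls in VHL-KO/AKI against AKI became 2868 under array weights, 2196 without Control 3 and AKI 4, 223 with the compared groups alone and 229 to 2384 with 1 array left out. The 2705 in VHL-KO/AKI against VHL-KO became 4328 under array weights, 0 with the covariate and 1683 to 3910 with 1 array left out. The interaction had 2, with 885 under array weights, 22 without Control 3 and AKI 4, 1 after quantile scaling or under the block, 0 after centring or with the covariate, and 0 to 620 with 1 array left out. Higher and lower calls were 95 and 10 in VHL-KO against Control, and 56 and 15 after quantile scaling. They were 495 and 279 in VHL-KO/AKI against AKI, and 395 and 417 after quantile scaling. Those of VHL-KO/AKI against VHL-KO numbered 929 and 1776, with 1467 and 1265 after centring, 1193 and 1339 after quantile scaling and 1264 and 1352 after cyclic loess. Deviations of same-numbered arrays from their group means had r from -0.38 to 0.20, and the numbers were not used to pair samples in the main fit. With 3 to 5 arrays per group, this check cannot exclude a pairing. No detection measure was used, so whether the dim P4ha3 stands above background was not tested.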

Other observations

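Neighbouring gene groups were counted after injury, where 28.1% of all genes were called in AKI against Control. Among 16 protein disulphide isomerases and endoplasmic reticulum chaperones, the class that P4hb belongs to, 2 rose and 1 fell in that comparison, a smaller share than over all genes. The chaperone Hspa5 rose by 1.04 and Creld2 by 1.15, and Txndc5, a disulphide isomerase, fell by 0.70. With deletion added, 1 of 16 rose in VHL-KO/AKI against AKI, Ero1a, which reoxidises disulphide isomerase, by 0.60 (adjusted p = 0.0352), and in VHL-KO against Control it differed by 0.88 (adjusted p = 0.0565), with 0 of 16 called. Among 10 elastic fibre genes, whose products lysyl oxidases cross-link or bind, 1 rose and 3 fell in AKI against Control. Fbln5, which binds elastin and Loxl1, fell by 1.66, and the binding proteins of latent TGF-beta Ltbp4 and Ltbp1 fell by 0.56 and 0.55, whereas Emilin1 rose by 0.36. Elastin (Eln) differed by -0.04 (adjusted p = 0.708). In VHL-KO against Control 0 of the 10 passed, and in VHL-KO/AKI against AKI Fbln1 rose by 0.50 (adjusted p = 0.0500, just under the threshold).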
